A study of Homo sapiens with 6 samples.

Results

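Histone chaperone genes that encode the HIRA complex, the ASF1 paralogs, CAF-1, ATRX, DAXX and NASP were followed by gene symbol in a bulk RNA-seq study of oncogene-induced senescence. All 10 were found among 59050 entries of the authors' TPM table (a transcript level scaled to transcript length and to the library's total), and all 10 reached the average of 1 TPM across libraries that was required for testing. The cells of both groups were HFF, a human fibroblast line, that carried ER:RAS, H-RAS (G12V) fused to the part of the oestrogen receptor that binds hormone, delivered by a virus at about passage 18 and selected with 200 µg/ml neomycin. One group of 3 libraries received 100 nM 4-hydroxytamoxifen (4-OHT), which switches the fusion protein on, and was harvested a week later. The other group of 3 libraries, labelled DMSO, is the vehicle control, and it also carries the vector. The labels do not say that the replicates came from separate cultures, so the p-values speak for the spread among these samples alone, which may be technical.

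Histone chaperones escort histones between synthesis and nucleosomes. CAF-1 places the replication-type H3 with H4 behind the replication fork, guided by the sliding clamp PCNA. The HIRA complex places the variant H3.3 outside replication, and ATRX with DAXX does so at telomeres and other heterochromatin. ASF1A and ASF1B hand H3-H4 dimers on, ASF1A with a preference for HIRA and ASF1B with one for CAF-1. NASP holds a soluble reserve of H3-H4. In human fibroblasts that enter senescence, HIRA and ASF1A are known for their part in forming senescence-associated heterochromatin foci, and HIRA is known to move into PML nuclear bodies before the foci appear.

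The 10 genes did not move as a block. The HIRA complex and ATRX were slightly higher in 4-OHT, by 1.19-fold to 1.28-fold, ASF1A did not pass the test, and the CAF-1 subunits, ASF1B and NASP were lower, by 1.99-fold to 7.68-fold. DAXX was 1.30-fold lower. In all, 4 members were called higher, 5 lower and 1 neither by limma on log2(TPM + 1) at an adjusted p of 0.05. Of the 4 called higher, UBN1 kept its call under every alternative tried, whereas HIRA, CABIN1 and ATRX lost theirs on leaving out single libraries. In that comparison 49.6% of 15272 tested genes were called, 19.8% higher and 29.9% lower, so that a call by itself does not set a gene apart. The libraries of the groups did not overlap for 9 of the 10 members, against 59% of all tested genes; 4 members lay above (23.8% of all genes) and 5 below (35.2%). The median log2 fold change was -0.17 over the 10 members and -0.09 over all genes tested. Each log2 fold change is the 4-OHT mean of log2(TPM + 1) minus the DMSO mean, and because of the added 1 it comes out too small for genes at low levels.

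**Figure D1:**
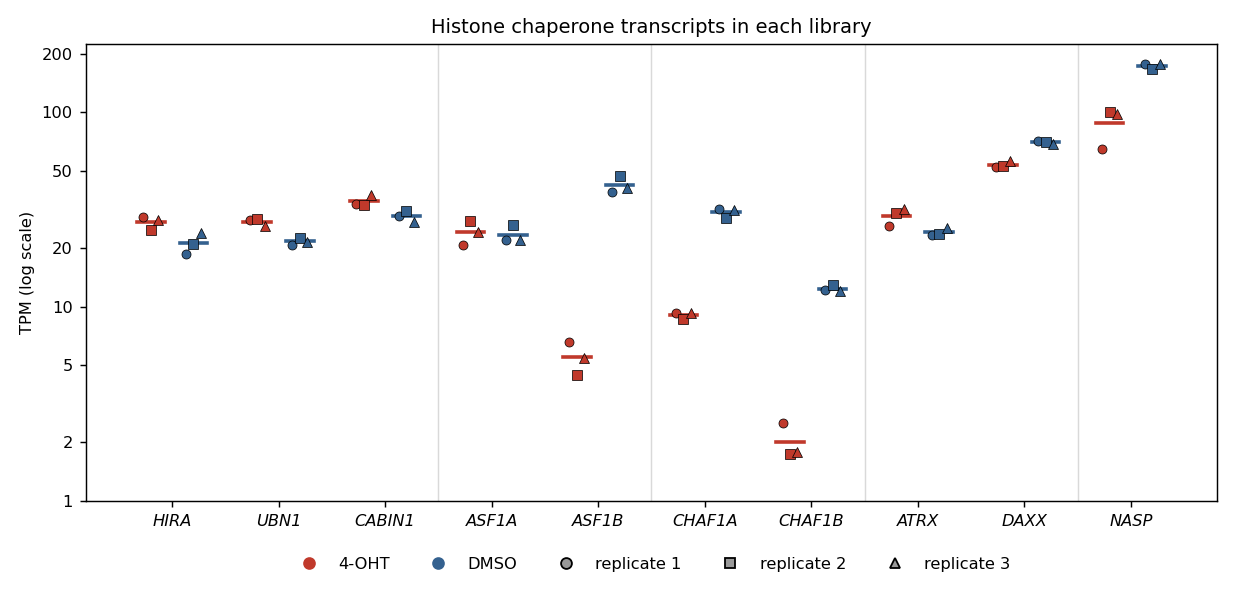
TPM of each chaperone gene in each library on a log axis, 4-OHT left of DMSO; symbols are replicates and bars are group means (n = 3). The 4-OHT and DMSO libraries overlap for ASF1A, and ASF1B is at 4.44 to 6.62 TPM in 4-OHT against 39.1 to 46.9 TPM in DMSO.

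The TPM of a library summed to between 998367 and 998843, as the unit fixes in advance, and the median coefficient of variation over tested genes was 9.38% in 4-OHT and 8.74% in DMSO. TPM do not carry the read depth, which stays unknown, and no limit of detection is given. All 8 listed fibroblast markers were above 1 TPM, with a summed level of 18984 to 19395 TPM in 4-OHT and 19994 to 20604 TPM in DMSO. More than any other marker VIM made up that sum, and single markers differed both ways: COL3A1 was at 471 to 484 TPM in 4-OHT and 892 to 901 TPM in DMSO, and PDGFRB at 262 to 276 TPM in 4-OHT and 157 to 177 TPM in DMSO. The 5 keratinocyte markers summed to 32.0 to 42.6 TPM in 4-OHT and 35.9 to 51.0 TPM in DMSO, nearly all of it KRT10, with KRT1 at 0 in every library. The 5 endothelial markers summed to at most 1.82 TPM in 4-OHT and 2.57 TPM in DMSO. The 5 immune markers summed to 59.7 to 67.2 TPM in 4-OHT and 60.1 to 90.5 TPM in DMSO, most of it CD68. The 5 melanocyte markers summed to 6.51 to 6.82 TPM in 4-OHT and 8.501 to 9.547 TPM in DMSO, with TYR and DCT at 0 in every library. Their part in the results was not tested.

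The 4 members with the lowest log2 fold changes were ASF1B, CHAF1B, CHAF1A and NASP. The starts of replication genes are known sites of cell-cycle control, and the 250 bases before the RefSeq start (GRCh38.p14) of ASF1B, CHAF1A, CHAF1B and NASP are shown with those of ASF1A, the paralog whose level did not pass the test. Capitals mark matches on either strand to the CCAAT box (CCAAT), to the cell-cycle homology region element (TTTGAA or TTTAAA) and to the E2F-type letters TTTGGCGC, TTTCGCGC, TTTCCCGC and TTTGCCGC; each sequence is given 5′ to 3′ on the strand of its gene. ASF1B lies on the minus strand of chr19:14136590-14136839, CHAF1A on the plus strand of chr19:4402390-4402639, CHAF1B on the plus strand of chr21:36385142-36385391, NASP on the plus strand of chr1:45583791-45584040 and ASF1A on the plus strand of chr6:118893902-118894151.
ASF1B: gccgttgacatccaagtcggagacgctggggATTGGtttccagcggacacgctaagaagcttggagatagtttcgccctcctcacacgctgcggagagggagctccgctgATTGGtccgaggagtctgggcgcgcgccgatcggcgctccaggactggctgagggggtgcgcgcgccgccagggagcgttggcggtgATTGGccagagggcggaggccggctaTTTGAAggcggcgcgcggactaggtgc
CHAF1A: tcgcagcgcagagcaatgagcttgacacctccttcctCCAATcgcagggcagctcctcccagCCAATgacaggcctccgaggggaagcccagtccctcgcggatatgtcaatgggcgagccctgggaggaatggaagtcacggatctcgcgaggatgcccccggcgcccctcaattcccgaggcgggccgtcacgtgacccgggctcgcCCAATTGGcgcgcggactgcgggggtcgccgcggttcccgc
CHAF1B: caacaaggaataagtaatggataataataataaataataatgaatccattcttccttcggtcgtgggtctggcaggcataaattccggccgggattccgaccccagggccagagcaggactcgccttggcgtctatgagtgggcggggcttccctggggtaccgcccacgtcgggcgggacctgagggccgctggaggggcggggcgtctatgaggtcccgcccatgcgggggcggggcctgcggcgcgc
NASP: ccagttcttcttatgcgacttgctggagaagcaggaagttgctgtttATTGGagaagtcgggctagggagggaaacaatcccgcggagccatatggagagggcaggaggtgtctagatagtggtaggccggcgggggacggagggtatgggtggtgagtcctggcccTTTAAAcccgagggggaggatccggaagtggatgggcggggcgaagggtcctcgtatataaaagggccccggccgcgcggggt
ASF1A: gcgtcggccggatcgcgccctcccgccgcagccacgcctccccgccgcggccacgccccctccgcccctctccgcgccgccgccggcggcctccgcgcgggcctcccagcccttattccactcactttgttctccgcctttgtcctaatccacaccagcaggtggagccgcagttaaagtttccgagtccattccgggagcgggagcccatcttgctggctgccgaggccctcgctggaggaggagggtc
Across 35116 windows of the same length, 32.0% held a CCAAT box, 21.9% a cell-cycle homology element and 2.79% an E2F-type match. ASF1B held 3 CCAAT boxes, which begin 219, 140 and 53 bases before the start, and a cell-cycle homology element that begins 27 bases before it. CHAF1A held 4 CCAAT matches, of which the last 2 overlap as a CCAATTGG palindrome that begins 41 bases before the start. NASP held 1 CCAAT box and 1 cell-cycle homology element, 203 and 83 bases before the start. UBN1, which was called higher, held 2 such elements in 1 of its 2 windows, 113 and 61 bases before the start, so that 3 members held the element. CHAF1B and ASF1A held none of these letters in their windows. Windows were on hand for 8 of the 10 members, and the members with a CCAAT box were 5, among them UBN1 and CABIN1, which were not lower; the single E2F-type match was in the window of HIRA, 45 bases before the start. A match describes letters only, and start positions differ between RefSeq and GENCODE 29.

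CAF-1 has a large subunit that binds PCNA, encoded by CHAF1A (chromosome 19, 4402662 to 4445018, plus strand, GRCh38), and a middle subunit that binds ASF1, encoded by CHAF1B (chromosome 21, 36385378 to 36419015, plus strand). CHAF1A was at 9.23, 8.63 and 9.30 TPM in 4-OHT, against 31.8, 28.6 and 31.3 TPM in DMSO. All 4-OHT libraries lay far below all DMSO libraries. Its log2 fold change was -1.65 (SE 0.0757, limma adjusted p = 4.08e-06), or 3.38-fold lower. CHAF1B was at 2.53, 1.74 and 1.79 TPM in 4-OHT, against 12.2, 12.9 and 12.002 TPM in DMSO. The groups were again fully separate, and CHAF1B was the least abundant of the 10 members in both. Its log2 fold change was -2.15 (SE 0.131, limma adjusted p = 1.43e-05), and the ratio of mean TPM was 6.12-fold lower. CHAF1A exceeded CHAF1B by 4.59 ± 0.824-fold in 4-OHT and 2.48 ± 0.224-fold in DMSO (SD, n = 3), without overlap. In GENCODE 29 the exons of CHAF1B share 89 bases (1.74%) with MORC3 on the same strand. MORC3 averaged 29.9 TPM in 4-OHT and 23.0 TPM in DMSO. CHAF1A shares 20 exon bases (0.465%) with UBXN6 on the opposite strand (128 TPM in 4-OHT and 122 TPM in DMSO). In bulk RNA, fewer cells that transcribe a gene and less of its RNA per cell cannot be told apart.

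RBBP4, the third CAF-1 subunit, which also belongs to many other chromatin complexes and is no member of the set, was at 45.6, 53.3 and 42.1 TPM in 4-OHT, against 54.0, 60.2 and 66.4 TPM in DMSO. The lowest DMSO library stood just above the highest 4-OHT library. RBBP4 had a log2 fold change of -0.35 (limma adjusted p = 0.0296), beside -1.65 for CHAF1A and -2.15 for CHAF1B. With median-of-ratios scaling its adjusted p was 0.108, and its call was also lost without 4-OHT replicate 1 (0.0794) or 3 (0.0865) or DMSO replicate 2 (0.0716) or 3 (0.09). No filter on low values (0.116) and no variance trend (0.0536) lost it too. PCNA averaged 121 ± 5.43 TPM in 4-OHT and 346 ± 10.4 TPM in DMSO (SD, n = 3; -1.51, limma adjusted p = 7.85e-07).

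ASF1A (chromosome 6, 118894220 to 118909167, plus strand) and ASF1B (chromosome 19, 14119509 to 14136956, minus strand) bind the same H3-H4 dimers. ASF1B was at 6.62, 4.44 and 5.43 TPM in 4-OHT, against 39.1, 46.9 and 40.6 TPM in DMSO. Every 4-OHT library was far below every DMSO library, and the log2 fold change was -2.74 (SE 0.137, limma adjusted p = 5.97e-06), or 7.68-fold lower in mean TPM. It was the lowest fold change of the 10, and only 0.34% of all tested genes had a lower one. ASF1A was at 20.7, 27.5 and 24.3 TPM in 4-OHT, against 22.1, 26.3 and 21.97 TPM in DMSO. Its groups overlapped almost completely. The log2 fold change of ASF1A was 0.04 with a 95% interval of -0.24 to 0.32 (limma adjusted p = 0.817). Its sign turned without 4-OHT replicate 2 (-0.06) and came to about zero without DMSO replicate 1 or 3 (-0.0001853 and -0.005095). ASF1B therefore made up 24.2, 13.9 and 18.3% of the summed TPM of the paralogs in 4-OHT, against 63.8, 64.1 and 64.9% in DMSO. The more abundant paralog was ASF1A in every 4-OHT library and ASF1B in every DMSO library. Summed over both paralogs, ASF1 transcripts were at 29.7 ± 2.32 TPM in 4-OHT and 65.6 ± 6.55 TPM in DMSO (SD, n = 3). In GENCODE 29 the exons of ASF1A share 137 bases, 5.44% of their length, with MCM9 on the opposite strand (3.99 TPM in 4-OHT and 4.85 TPM in DMSO), and the strand setting of the counting is not given in the sources used here.

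NASP (chromosome 1, 45583846 to 45618904, plus strand) was the most abundant member in both groups. It was at 64.5, 100.5 and 98.1 TPM in 4-OHT, against 177, 167 and 179 TPM in DMSO. All 4-OHT libraries were below all DMSO libraries, with 4-OHT replicate 1 well below its other 2 replicates. The log2 fold change was -1.01 (SE 0.16, limma adjusted p = 0.00174), and without 4-OHT replicate 1 it was -0.80 (limma adjusted p = 8.91e-05).

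**Figure D2:**
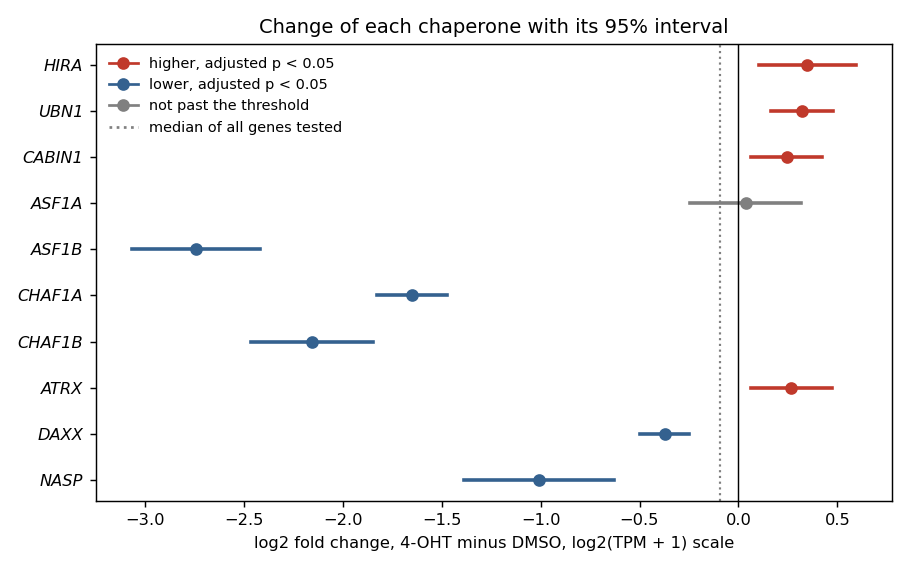
Log2 fold change of each chaperone gene, 4-OHT minus DMSO, with the 95% interval of the limma fit; the dotted line is the median of all tested genes (-0.09). CHAF1A, CHAF1B, ASF1B and NASP lie at -1.01 or lower, and the other 6 members lie between -0.37 and 0.35.

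The HIRA complex is built from the histone-binding WD-repeat protein HIRA (chromosome 22, 19330698 to 19447450, minus strand), UBN1 (chromosome 16, 4846665 to 4882360, plus strand), which recognises H3.3, and CABIN1 (chromosome 22, 24011192 to 24178628, plus strand), which was first known as an inhibitor of calcineurin. UBN1 was at 28.0, 28.1 and 26.1 TPM in 4-OHT, against 20.9, 22.7 and 21.6 TPM in DMSO. The groups were separate by more than their own ranges. UBN1 rose by a log2 fold change of 0.32 (SE 0.0664, limma adjusted p = 0.00581), and its call held without any single library (adjusted p of 0.00989 to 0.0231). The annotated starts of UBN1 and of GLYR1 on the opposite strand overlap, with 115 shared exon bases (1.34% of those of UBN1), and GLYR1 averaged 57.4 TPM in 4-OHT and 53.1 TPM in DMSO.

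HIRA was at 28.9, 24.97 and 27.9 TPM in 4-OHT, against 18.7, 20.9 and 24.1 TPM in DMSO. The lowest 4-OHT library was only just above the highest DMSO library. The log2 fold change was 0.35 (SE 0.104, limma adjusted p = 0.0278), and the call was lost without 4-OHT replicate 1 (adjusted p = 0.0844) or 3 (0.0757) and without DMSO replicate 1 (0.076) or 2 (0.0702). In GENCODE 29 the neighbouring gene C22orf39, on the same strand, shares 66.5% of the exon bases of HIRA, and how reads were divided between these entries is not given in the sources used here. C22orf39 was at 6.02, 10.1 and 13.7 TPM in 4-OHT, against 12.8, 11.3 and 11.8 TPM in DMSO (log2 fold change -0.30, limma adjusted p = 0.349). The entries summed to 34.9, 35.1 and 41.6 TPM in 4-OHT, against 31.5, 32.2 and 35.9 TPM in DMSO. These sums overlapped, and with the sum in place of HIRA the log2 fold change was 0.16 (limma adjusted p = 0.185), an alternative chosen after the data were seen.

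CABIN1 was at 33.6, 33.3 and 37.6 TPM in 4-OHT, against 29.3, 31.1 and 27.3 TPM in DMSO. The groups were separate, by a small margin. The log2 fold change was 0.24 (SE 0.0762, limma adjusted p = 0.0323), a call lost without 4-OHT replicate 1 (adjusted p = 0.0521) or 3 (0.0951) and without DMSO replicate 1 (0.0715) or 3 (0.0922). The 3 subunits of the HIRA complex thus stayed within 0.24 to 0.35 on the log2 scale, while CHAF1A and CHAF1B lay at -1.65 and -2.15.

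The HIRA complex was then set against CAF-1 within each library, as the mean log2(TPM + 1) of HIRA, UBN1 and CABIN1 minus that of CHAF1A and CHAF1B. The difference was 2.37, 2.53 and 2.54 in 4-OHT, against 0.18, 0.33 and 0.30 in DMSO. In DMSO these means stood at nearly the same level, and in every 4-OHT library they were far apart. The CAF-1 mean leaves out its subunit RBBP4, which averaged 47.0 TPM in 4-OHT and 60.2 TPM in DMSO. The near-equality in DMSO therefore holds for the averaged subunits only. The mean of the HIRA complex was 4.94 ± 0.0413 in 4-OHT and 4.63 ± 0.0622 in DMSO, a difference of 0.31, and that of CAF-1 was 2.46 ± 0.116 in 4-OHT and 4.36 ± 0.0195 in DMSO, a difference of -1.90 (log2 scale, SD, n = 3). Most of the gap of 2.21 between these differences therefore lay on the side of CHAF1A and CHAF1B. No p is given, since the members were chosen with earlier results of these data known. For the single genes, HIRA over CHAF1A was 3.13, 2.89 and 2.997 in TPM in 4-OHT, against 0.59, 0.73 and 0.77 in DMSO.

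**Figure D3:**
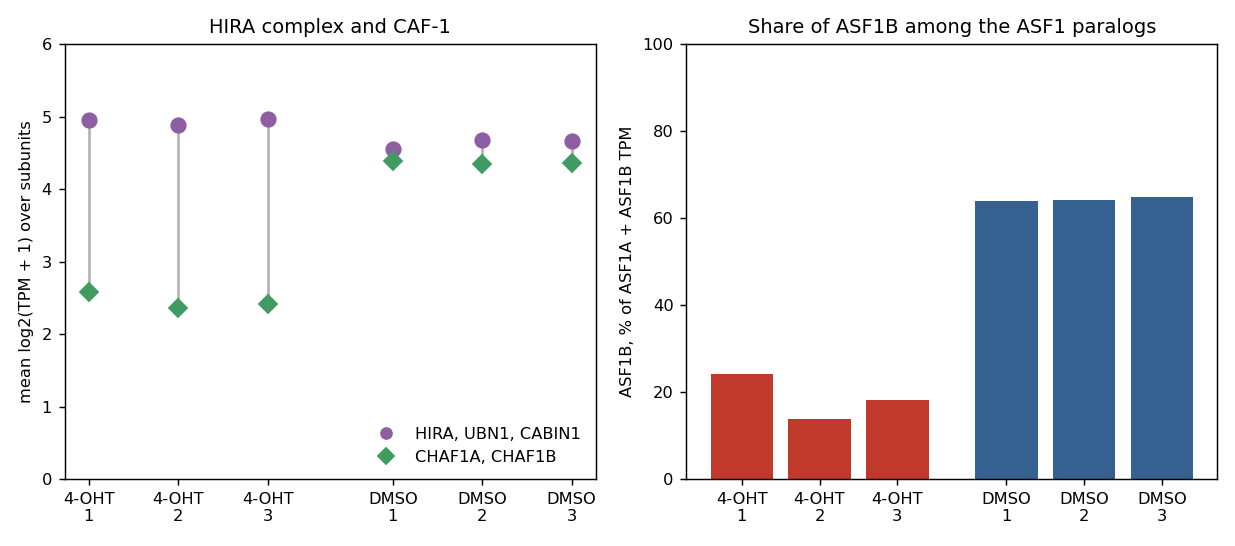
Left, mean log2(TPM + 1) of the HIRA complex (circles) and of CAF-1 without RBBP4 (diamonds) in each library. Right, ASF1B as a percentage of the summed TPM of ASF1A and ASF1B in each library. The HIRA complex minus CAF-1 is 2.37 to 2.54 in 4-OHT and 0.18 to 0.33 in DMSO, and the ASF1B share is 13.9 to 24.2% in 4-OHT and 63.8 to 64.9% in DMSO.

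ATRX (chromosome X, 77504878 to 77786233, minus strand), a chromatin remodeller, and DAXX (chromosome 6, 33318558 to 33323016, minus strand), the H3.3 chaperone that it recruits, went in opposite directions. ATRX was at 26.1, 30.5 and 31.8 TPM in 4-OHT, against 23.5, 23.8 and 25.3 TPM in DMSO. The lowest 4-OHT library was close to the highest DMSO library. The log2 fold change of ATRX was 0.27 (SE 0.0865, limma adjusted p = 0.0368), a call that held without 4-OHT replicate 1 (adjusted p = 0.00997) and was lost without 4-OHT replicate 2 (0.104) or 3 (0.109) and without DMSO replicate 1 (0.0977), 2 (0.0934) or 3 (0.0533). DAXX was at 52.4, 52.8 and 56.5 TPM in 4-OHT, against 71.6, 70.2 and 68.4 TPM in DMSO. The groups were clearly separate and DAXX fell by 0.37 on the log2 scale (SE 0.0517, limma adjusted p = 0.000903), a call that held without any single library. ATRX over DAXX in TPM was 0.546 ± 0.0423 in 4-OHT and 0.346 ± 0.0216 in DMSO (SD, n = 3).

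Per transcript length, NASP and DAXX were the most abundant members in both groups, and their libraries overlapped neither each other nor those of any other member. In 4-OHT they were followed by CABIN1 at 34.8 TPM and then by ATRX, UBN1, HIRA and ASF1A at 29.4, 27.4, 27.2 and 24.2 TPM, neighbours whose libraries overlapped. CHAF1A, ASF1B and CHAF1B came last at 9.05, 5.50 and 2.02 TPM, each apart from the next. In DMSO the order after DAXX was ASF1B at 42.2 TPM, then CHAF1A and CABIN1 at 30.6 and 29.2 TPM, which overlapped. ATRX, ASF1A, UBN1 and HIRA followed at 24.2, 23.5, 21.7 and 21.2 TPM, each overlapping the next, and CHAF1B at 12.4 TPM. ASF1B and CHAF1A thus stood above the whole HIRA complex on average in DMSO and below it in 4-OHT. All 10 members together summed to 273, 313 and 319 TPM in 4-OHT, against 446, 451 and 451 TPM in DMSO, and NASP alone made up 28.9 ± 4.56% of that sum in 4-OHT and 38.8 ± 1.45% in DMSO (SD, n = 3).

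The genes that supply H3-H4 or work with CAF-1 and ASF1 were lower in 10 of 12 cases and higher in none, against 29.9% lower among all genes, with a median log2 fold change of -0.69. This list and those below were chosen with earlier results of these data known, so their counts are description only. MCM2, a helicase subunit that also binds H3-H4 at the fork, averaged 7.53 ± 1.14 TPM in 4-OHT and 38.8 ± 2.99 TPM in DMSO (SD, n = 3; -2.23, limma adjusted p = 7.23e-06), and PCNA, given above, had the next lowest log2 fold change on the log2(TPM + 1) scale. TONSL and MMS22L, which bind new H4 on replicated DNA as a complex, had log2 fold changes of -1.07 and -1.29. HAT1, which acetylates new H4, and its partner RBBP7 were at -0.47 and -0.77. The kinases that phosphorylate ASF1 differed: TLK1 fell to 13.2 ± 0.2 TPM in 4-OHT, against 20.8 ± 1.44 TPM in DMSO (SD, n = 3; -0.62, limma adjusted p = 0.000501), while TLK2 was at 31.1 ± 1.06 TPM in 4-OHT and 29.5 ± 2.21 TPM in DMSO (0.07, limma adjusted p = 0.433). The importin IPO4, at 0.30 with an adjusted p of 0.314, was the other gene that did not pass.

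Among 7 partners and sites of HIRA and of ATRX with DAXX, 4 were lower and none higher (median -0.23), where 29.9% of all genes were lower and 19.8% higher. Under median-of-ratios scaling 1 was lower and 1 higher, and on leaving out single libraries 2 to 3 were lower, with 1 higher without DMSO replicate 2. Of 15272 genes, 3591 were lower and 4036 higher under that scaling. On leaving out single libraries 3903 to 4180 of all tested genes were lower and 2620 to 2755 higher. SETDB1, a methyltransferase of H3, was lower (-0.42, limma adjusted p = 0.0382) and lost its call without 4-OHT replicate 1 (0.0668) or 2 (0.0964) and without DMSO replicate 1 (0.112) or 2 (0.0722). Its call was also lost under median-of-ratios scaling (0.109), quantile normalization (0.0809), no filter on low values (0.136) and no variance trend (0.057). HIRIP3, named for its binding to HIRA, fell to 7.64, 7.68 and 7.23 TPM in 4-OHT, against 19.4, 19.8 and 20.4 TPM in DMSO (-1.29, limma adjusted p = 1.07e-05). UBN2, the paralog of UBN1, was at 2.39 ± 0.509 TPM in 4-OHT and 3.75 ± 0.241 TPM in DMSO (SD, n = 3; -0.50, limma adjusted p = 0.0313), a call that held without 4-OHT replicate 1 and was lost without 4-OHT replicate 2 (adjusted p = 0.0637) or 3 (0.0806) and without DMSO replicate 1 (0.064), 2 (0.0958) or 3 (0.0687). The call of UBN2 was also lost under quantile normalization (-0.25, limma adjusted p = 0.233) and median-of-ratios scaling (0.065). The replicate block (0.0565) and no filter on low values (0.0871) lost it too. UBN1 was more abundant than UBN2 in both groups. PML, which forms the nuclear bodies, was at 41.0, 46.2 and 42.1 TPM in 4-OHT, against 36.1, 40.8 and 36.4 TPM in DMSO, a separation by a small margin that did not pass the test (0.18, limma adjusted p = 0.0763). SP100, another constant part of those bodies, was at 76.6 ± 1.39 TPM in 4-OHT and 90.2 ± 3.44 TPM in DMSO (SD, n = 3; -0.23, limma adjusted p = 0.00574), and with median-of-ratios scaling its adjusted p was 0.0795. The H3.3 genes H3F3A and H3F3B, which encode the cargo, had log2 fold changes of 0.06 and 0.00410 (limma adjusted p = 0.559 and 0.963), and their summed level of 650 ± 33.3 TPM in 4-OHT and 638 ± 41.7 TPM in DMSO overlapped between groups.

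Of 14 other histone chaperones 8 were lower, 2 higher and 4 not called (median -0.43), beside 29.9% lower and 19.8% higher among all genes. HJURP, which loads the centromeric variant CENP-A, averaged 6.01 ± 0.901 TPM in 4-OHT and 33.0 ± 1.19 TPM in DMSO (SD, n = 3; -2.28, limma adjusted p = 4.53e-06). DEK was at 58.7 ± 1.0 TPM in 4-OHT and 159 ± 8.14 TPM in DMSO (SD, n = 3; -1.42, limma adjusted p = 1.36e-06). The FACT subunits SSRP1 and SUPT16H, which move H2A-H2B past polymerases, were at -0.80 and -0.88. The 2 called higher were SUPT6H (0.24, limma adjusted p = 0.00549), which travels with RNA polymerase II, and SPTY2D1 (0.28, limma adjusted p = 0.0353), a chaperone of H3-H4 in transcribed genes. SUPT6H kept its call under all 13 alternatives, and SPTY2D1 lost it without 4-OHT replicate 2 (adjusted p = 0.101) or 3 (0.106) and without DMSO replicate 1 (0.0887), 2 (0.063) or 3 (0.0855). NAP1L1 and NAP1L4, which carry H2A-H2B, were at 0.11 and -0.03 and did not pass.

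**Figure D4:**
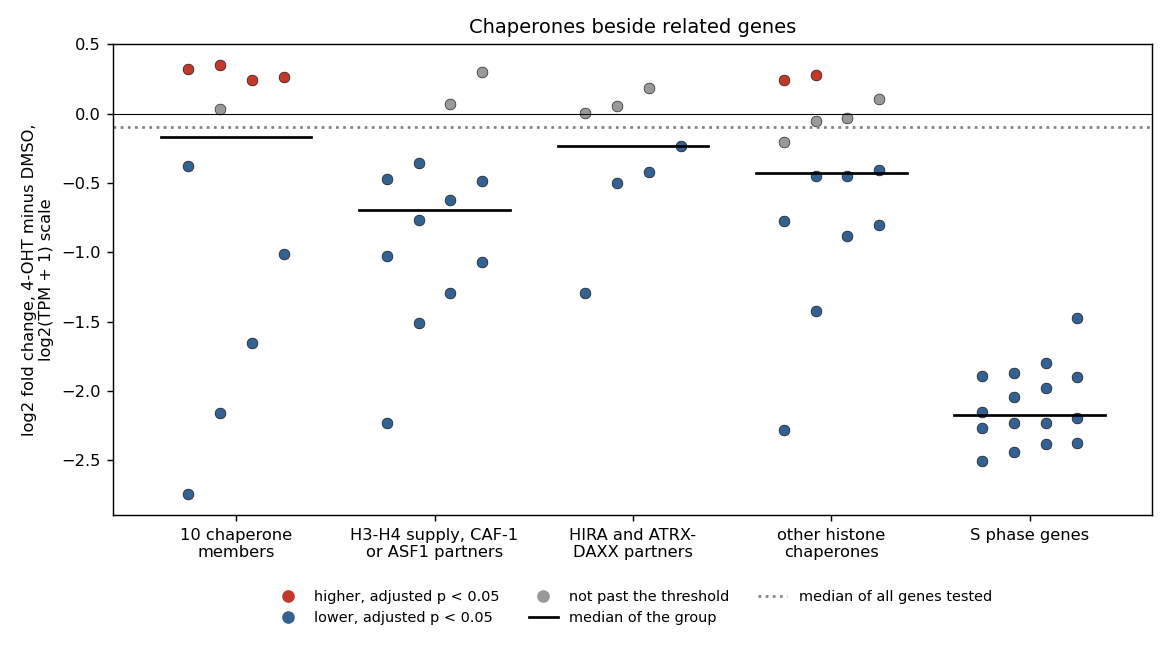
Log2 fold change, 4-OHT minus DMSO, of the 10 members and of the genes in 4 related lists; points are genes, black bars are medians and the dotted line is the median of all tested genes. The medians are -0.17 for the members, -0.69 for H3-H4 supply and CAF-1 or ASF1 partners, -0.23 for HIRA and ATRX-DAXX partners, -0.43 for other histone chaperones and -2.17 for S phase genes.

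All 16 listed S phase genes were lower, against 29.9% lower among all genes. Their log2 fold changes ran from -2.50 to -1.47, with a median of -2.17. TYMS, which makes thymidylate, averaged 50.5 ± 2.89 TPM in 4-OHT and 290.1 ± 7.0 TPM in DMSO (SD, n = 3; -2.50, limma adjusted p = 1.79e-07), and GINS2, of the replicative helicase, 3.20 ± 0.411 TPM in 4-OHT and 21.8 ± 2.5 TPM in DMSO (SD, n = 3; -2.44, limma adjusted p = 6.44e-06). CHAF1A and CHAF1B lay inside the range of these genes, ASF1B below it, and NASP, DAXX, ASF1A, ATRX and the HIRA complex above it. The part of the cell-cycle state of the cultures in the changes of the chaperones was not tested. The share of all tested genes with a lower log2 fold change was 2.70% for CHAF1A, 1.27% for CHAF1B and 8.33% for NASP.

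The nearest expression profiles were sought among 10624 other genes of at least 5 TPM, as the Euclidean distance between log2(TPM + 1) profiles over the 6 libraries after centring each on its mean; since the groups dominate these profiles, the distance describes chiefly the size of the change. CHAF1B was closest to GAS2L3 (distance 0.0918), SKA3 (0.155), a kinetochore protein, and the pseudogene HMGN2P5 (0.204). CHAF1A was closest to IDH2 (0.142), a mitochondrial isocitrate dehydrogenase, IFIT2 (0.146), an interferon-induced gene, and TIMELESS (0.15), a replication fork protein. ASF1B was closest to FAM111B (0.299), HMMR (0.301), a protein of the mitotic spindle, and LRIG3 (0.329). NASP was closest to FAXDC2 (0.0841), JRK (0.131) and P4HA3 (0.148), a subunit of collagen prolyl hydroxylase.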

How the data were processed

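The authors deposited 1 table of TPM with 59050 entries named by gene symbol and a column for each of the 6 libraries. The submitters' processing notes name GRCh38, StringTie, STAR and Trim Galore (0.6.6); which annotation and strand setting applied is not given in the sources used here. Input per library was 1 µg of total RNA, per the labels. One value of DMSO replicate 3 lay below 0 and was set to 0, and 27 symbols had become dates.

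The 15272 genes averaging 1 TPM or more were tested in R 4.3.3 by limma 3.58.1 (a moderated linear model with a mean-variance trend and no covariate) on log2(TPM + 1), 2-sided, with Benjamini-Hochberg adjustment over all genes tested and a threshold of 0.05. Alternatives changed the pseudocount, the filter, the scaling, the variance trend, the replicate block and the set of libraries, in turn. The fit was also run on simulated data, and its outcome there is not reported here. The members and lists were chosen with earlier results of these data known. Named genes are the members and the genes of the lists (for each list the 2 called genes that changed most in full). The 3 nearest profiles of CHAF1A, CHAF1B, ASF1B and NASP are named too. C22orf39, MCM9, GLYR1, MORC3, UBXN6 and AL662820.1 were added for their overlap with members. Gene positions are from GENCODE 29 and start windows from RefSeq (GRCh38.p14). Python 3.11.15, pandas 2.3.3 and matplotlib 3.10.9 were used.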

Additional observations from a re-analysis of the deposited data

How the results depend on the processing

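ASF1B, CHAF1A, CHAF1B, NASP, DAXX and UBN1 kept their direction and their call under all 13 alternatives. The log2 fold changes ranged from -2.93 to -2.61 for ASF1B, -1.75 to -1.54 for CHAF1A, -2.57 to -1.95 for CHAF1B, -1.12 to -0.80 for NASP, -0.41 to -0.25 for DAXX and 0.30 to 0.44 for UBN1. The median shift of a gene's log2 fold change was 0.113 under median-of-ratios scaling and 0.131 under quantile normalization, under which DAXX and NASP moved down. The share of lower genes among those called was 60.2% without scaling, 47.1% with the median of ratios (4036 rose, 3591 fell) and 49.7% with quantile normalization. Under both scalings HIRA, UBN1, CABIN1 and ATRX were still called higher, and DAXX lower.

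With no filter on low values, where 36814 genes were tested, the calls of HIRA (0.35, adjusted p = 0.0932), CABIN1 (0.24, adjusted p = 0.0765) and ATRX (0.27, adjusted p = 0.096) were lost. ATRX was also lost with no variance trend (0.27, adjusted p = 0.0535) and HIRA with the C22orf39 entry added to it (0.16, adjusted p = 0.185); the cause was not tested. Libraries of the same replicate number deviated from their group means with correlations of 0.0475, 0.00549 and 0.00664. For libraries of different numbers the correlations ran from -0.0573 to 0.0497. Such values cannot settle whether the replicate numbers pair the samples. With the replicate block 2819 genes were called higher and 4246 lower, the call of CABIN1 was lost (0.24, adjusted p = 0.0772), and 1 gene each of the HIRA and ATRX-DAXX partners and of the other chaperones was called higher.

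On leaving out each library in turn the log2 fold change was 0.27 to 0.44 for HIRA, 0.19 to 0.29 for CABIN1, 0.21 to 0.35 for ATRX and -0.06 to 0.14 for ASF1A; it was below zero for ASF1A without 4-OHT replicate 2 (-0.05703), DMSO replicate 1 (-0.0001853) and DMSO replicate 3 (-0.005095). Over these fits the HIRA and ATRX-DAXX partners called higher were 0 to 1 and lower 2 to 3, and the other chaperones called higher 1 to 2. Among all genes tested in the same fits, 2620 to 2755 were called higher and 3903 to 4180 lower. The share called in either direction was 43.6 to 44.6%. The partners called lower were 2 with no filter, 1 under median-of-ratios scaling (1 higher) and 2 under quantile normalization, and the other chaperones called higher were 1 with no filter, SPTY2D1 being the call lost there and under the replicate block. Of 36814 genes tested with no filter, 4108 were lower and 2726 higher. Of 15272 genes, 3591 were lower and 4036 higher under median-of-ratios scaling, and 3604 lower and 3650 higher under quantile normalization. The mean of the HIRA complex differed by 0.42 under median-of-ratios scaling. That of CAF-1 differed by -2.16 with a pseudocount of 0.1 and by -1.74 under quantile normalization, and the gap between the complexes was 2.48 and 2.10 in these fits.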
